A study of Mus musculus with 12 samples.

Results

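Histones are the proteins around which DNA is wound, and their mRNAs come in 2 kinds. Replication-dependent histone genes (the H1, H2A, H2B, H3 and H4 genes that sit in clusters) are transcribed mainly while a cell copies its DNA. Their mRNAs have no introns and end in a conserved stem-loop rather than a poly(A) tail, and the stem-loop is bound by the protein SLBP, which governs their processing, translation and decay. Variant histone genes (H3.3, H2A.Z, H2A.X, macroH2A and H1.0) are expressed outside of S phase as well, which makes them the main source of new histone in cells that no longer divide, such as neurons. Most of their mRNAs have introns and a poly(A) tail. How both kinds of mRNA behave in RNA immunoprecipitation of the m6A-binding proteins YTHDF1, YTHDF2 and YTHDF3 is described here for 74 histone genes, 66 replication-dependent and 8 variant, out of 17126 genes tested.

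The genes were those listed as protein-coding by the authors with a symbol of the Hist1h to Hist4h type, plus *H2afx*, *H2afy*, *H2afy2*, *H2afz*, *H2afv*, *H3f3a*, *H3f3b* and *H1f0*. Those of the Hist type were classed as replication-dependent and the others as variant, by symbol alone. The deposited tables use newer symbols for nearly all of them (3 matched as written), so the older symbols were matched by Ensembl identifier and the newer ones are used here (*H2ax*, *Macroh2a1*, *Macroh2a2*, *H2az1* and *H2az2* for the first 5). None of the 74 was lost to the filter on low counts (a mean of 10 or more after scaling). They were drawn from the 16716 genes of the authors' table, where their means were already at least 16.5. Another 2 histone-named genes were absent from that table. Of the replication-dependent genes, 52 lie in the large cluster on chromosome 13, 10 on chromosome 3, 3 on chromosome 11 and 1 on chromosome 6.

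RNA came from hippocampal neurons of newborn C57BL/6 mice with no genetic change, pooled from litters and kept for 14 days in culture. Per the study's methods, cytosine arabinoside was given early in culture against dividing glia, lysate was split between antibodies to the endogenous YTHDF1, YTHDF2 and YTHDF3 proteins, and RNA from a fraction of the lysate formed the Input. The Input and each of the 3 RIPs had 3 libraries, made from total RNA without poly(A) selection, so mRNAs without a tail could be counted. No control antibody was analysed here, and all 3 RIPs were set against the same Input libraries.

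The stem-loop that marks replication-dependent mRNAs was looked for in all annotated protein-coding transcripts of each histone gene (GENCODE M21, GRCm38). The match was a 16-base hairpin with 6 base pairs, starting with GG and ending with CC, with a 4-base loop that begins with TT. It was found in 43 of the 66 replication-dependent genes and in 1 variant gene, *H2ax*. Over 21866 protein-coding genes the share was 0.576%, from a narrower search of the longest transcript of each gene alone. The forms below are shown because the stem differed between the H4 genes and the other families, with the hairpin in capitals and 5 bases on each side.
H4c3 (H4, chromosome 13): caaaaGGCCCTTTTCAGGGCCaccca
H4c8 (H4, chromosome 13): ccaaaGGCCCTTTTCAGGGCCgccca
H4c2 (H4, chromosome 13): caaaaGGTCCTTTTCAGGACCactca
H2ac19 (H2A, chromosome 3): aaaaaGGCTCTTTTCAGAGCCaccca
H1f4 (H1, chromosome 13): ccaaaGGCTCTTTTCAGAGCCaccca
H3c2 (H3, chromosome 13): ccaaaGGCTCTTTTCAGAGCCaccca
H2bc3 (H2B, chromosome 13): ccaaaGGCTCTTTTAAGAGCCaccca
H2ax (variant H2A, chromosome 9): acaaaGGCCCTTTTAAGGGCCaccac
The 5′ arm of the stem read GGCTCT in all 32 hairpins of the H1, H2A, H2B and H3 genes, whereas in the 11 H4 hairpins it read GGCCCT in 9 and GGTCCT in 2. The other 23 replication-dependent genes had no match, which says only that these letters are not in the annotated protein-coding transcripts. Of these, *H2bu1-ps*, a pseudogene by its symbol that the authors list as protein-coding, had no such transcript to search.

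The replication-dependent transcripts were short, with a median of 539 bases, and 60 of the 65 genes with a protein-coding transcript had a single exon. The 8 variant transcripts had a median of 2050.5 bases, and only *H1f0* and *H2ax* had 1 exon. GGAC, the core of the most common m6A motif, occurred a median of 2 times in a replication-dependent transcript, with none in 11 genes, and a median of 7 times in a variant transcript. In the protein-coding genes of the authors' table the median was 13, with 99.6% holding at least 1. Per kilobase the medians were 2.33 for replication-dependent, 4.21 for variant and 4.11 for the latter genes, and whether any of these sites carries m6A was not measured in these libraries.

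Many replication-dependent genes are near copies of each other. A median of 49.3% of the 50-base windows of such a transcript occurred in another histone gene, and in the deposited counts a read that aligned to several genes was counted at each. *H2ac18* and *H2ac19*, 2 neighbouring H2A genes on chromosome 3, never differed by more than 0.622% in count, and *H2ac23* and *H2ac24* on chromosome 13 never by more than 1.77%. Such genes cannot be taken as separate measurements, and counts of genes below are larger than the number of independent transcripts. All 8 variant genes had few or no shared windows (0 to 6.14%).

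Counts of replication-dependent histone mRNA were high in Input, and they varied between the replicates more than those of variant histone mRNA did. Reads shared by near copies were counted at each, so sums of replication-dependent genes may be overstated beside those of variant genes. The 66 genes together took 762, 1393 and 3059.8 CPM (counts scaled to the TMM-adjusted library size) in Input replicates 1, 2 and 3. Their sum was 615, 2720.2 and 291 CPM in the YTHDF1 RIP, 1528, 3170.2 and 1512 CPM in the YTHDF2 RIP, and 191, 318 and 347 CPM in the YTHDF3 RIP. The YTHDF3 RIP lay below every Input library and every YTHDF2 RIP library, whereas the YTHDF1 RIP spanned 9.33-fold, with replicate 2 close to the highest Input. The 8 variant genes summed to 448, 531 and 625 CPM in Input, 219, 264 and 201 CPM in the YTHDF1 RIP, 362, 369 and 289 CPM in the YTHDF2 RIP and 266, 296 and 282 CPM in the YTHDF3 RIP. All RIP libraries were below all Input libraries for this sum, and the largest spread within a group was 1.40-fold.

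**Figure D1:**
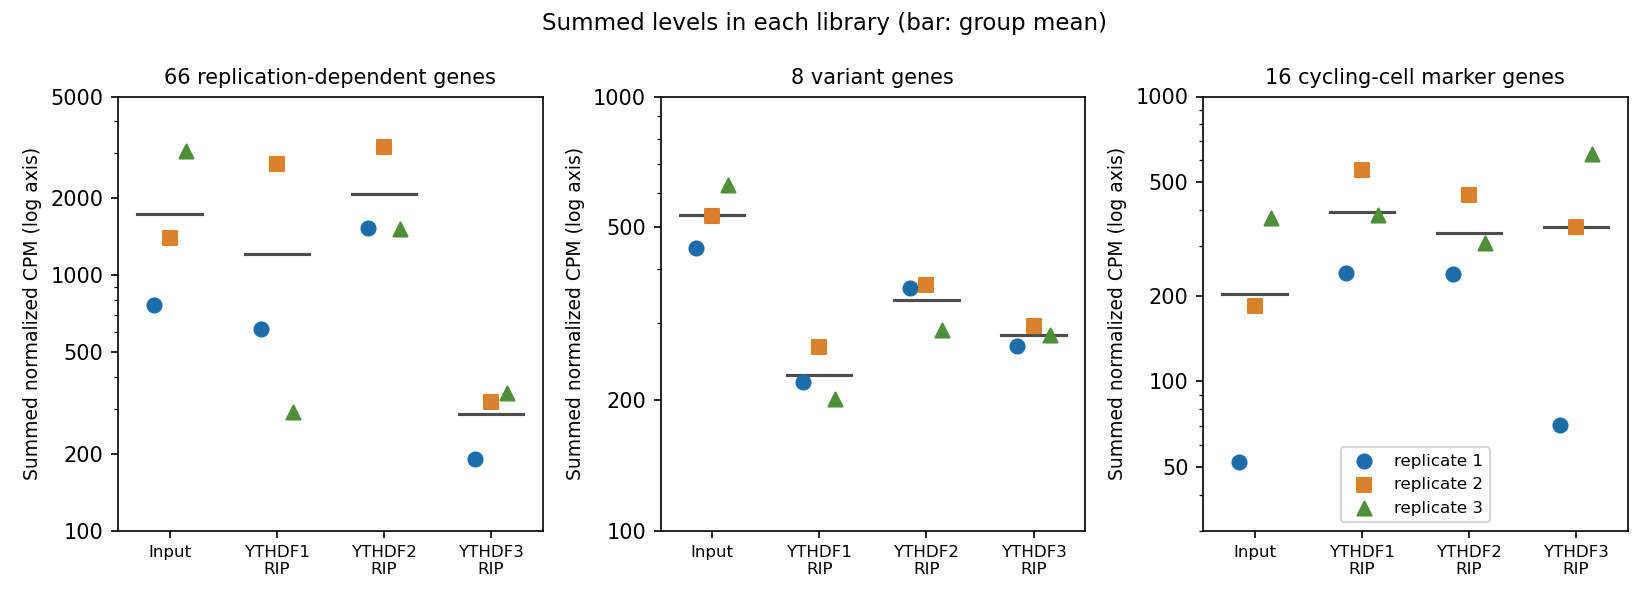
Summed normalized CPM on log axes in each of the 12 libraries for the 66 replication-dependent genes, the 8 variant genes and 16 marker genes of cycling cells. Points are libraries, coloured by replicate number, and bars are group means. The YTHDF3 RIP sits at 191 to 347 CPM for replication-dependent genes and at 70.6 to 626 CPM for cycling markers.

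Markers of dividing cells moved with these sums in Input and the YTHDF3 RIP and in part in the other RIPs. The 16 markers, among them *Mki67*, *Top2a*, *Pcna* and the Mcm genes, summed to 52.2, 184 and 375 CPM in Input, 240, 554 and 385 CPM in the YTHDF1 RIP, 238, 451 and 307 CPM in the YTHDF2 RIP and 70.6, 349 and 626 CPM in the YTHDF3 RIP. Group means of the 16 were at least 1.67 CPM. In Input and in the YTHDF3 RIP, replicate 1 was lowest and replicate 3 highest for both the cycling markers and the replication-dependent sum, and in the YTHDF1 and YTHDF2 RIPs replicate 2 was highest for both, while the lowest replicate was 1 for the markers and 3 for the histone sum. None of the 16 was called different from Input in any RIP by edgeR or by DESeq2, with 0, 1 and 0 of them under 0.05 before adjustment for YTHDF1, YTHDF2 and YTHDF3, and their median log2 fold changes were -0.11, 0.50 and 0.19. How far dividing cells account for the spread in histone mRNA was not tested. In such bulk libraries fewer dividing cells and less histone mRNA per cell cannot be told apart.

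Markers of other cell types were detected at levels that differed between libraries. In the RIPs, cell content and pulldown of the marker mRNAs cannot be told apart. Neuron markers summed to 2610 to 3558 CPM in Input, astrocyte markers to 1018 to 3454 CPM and oligodendrocyte-lineage markers to 46.7 to 408 CPM, while microglia (2.86 to 6.53 CPM) and endothelial and mural markers (7.71 to 12.2 CPM) were scarce. Input replicate 1 and YTHDF3 RIP replicate 1 held the lowest oligodendrocyte-lineage sums of all libraries (46.7 and 49.4 CPM). Library totals ran from 6020072 to 38909592 counts, of which the histone genes took 7235 to 41831.

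Level per length put the H2A genes first. In CPM per kilobase of exon (RPKM) in Input, *H2ac19* was highest at 230 ± 129 (SD, n = 3), followed by *H2ac18* at 207 ± 115 and *H2ac12* at 131 ± 125, and the spreads of these 3 overlap widely. The 10 highest genes were all replication-dependent. The median gene was at 36.2 RPKM among the replication-dependent and at 23.1 RPKM among the variant genes. A read that aligned to several copies was counted at each, so the RPKM of near copies may be overstated. Windows shared with another histone gene made up 100% of *H2ac19*, 89.2% of *H2ac18* and 90.7% of *H2ac12*. In variant genes the range was 0 to 6.14%, so levels of both classes are not on an equal footing. Lengths are those of the authors' annotation, which runs far past the stem-loop in some genes (by 4884 bases in *H1f3* and 1153 bases in *H1f4*), so that their RPKM may be understated.

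The first question was which histone mRNAs were lower or higher than Input with each YTHDF protein. A gene was called when its edgeR p, adjusted over all genes tested by the Benjamini-Hochberg method, did not exceed 0.05 and its log2 fold change was 0.32 or more in size. With YTHDF1, 15 of the 66 replication-dependent genes were lower than Input and 1 was higher, against 25.8% of all tested genes called lower and 27.2% called higher. The median log2 fold change of the 66 was -0.52, against 0.02 over all tested genes, and its sign was not stable (0.10 without Input replicate 3 and 0.19 with the length trend removed). With YTHDF2, 9 were lower (19.0% of all genes) and 0 were higher (15.7%), and the median was 0.17. For that count of 0, edgeR gave 1 gene at an unadjusted p under 0.05 and DESeq2 called 1. With YTHDF3, 49 of the 66 were lower, against 23.0% of all genes. None was higher (16.4%), also with DESeq2 or at an unadjusted p under 0.05, and the median was -3.05. The log2 fold change was negative for all 66 in the YTHDF3 RIP, and in 65 of them it was lower than in either other RIP. Shares of all tested genes with this sign and order were not computed, and near copies among the 66 share reads. All comparisons here share the Input libraries.

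**Figure D2:**
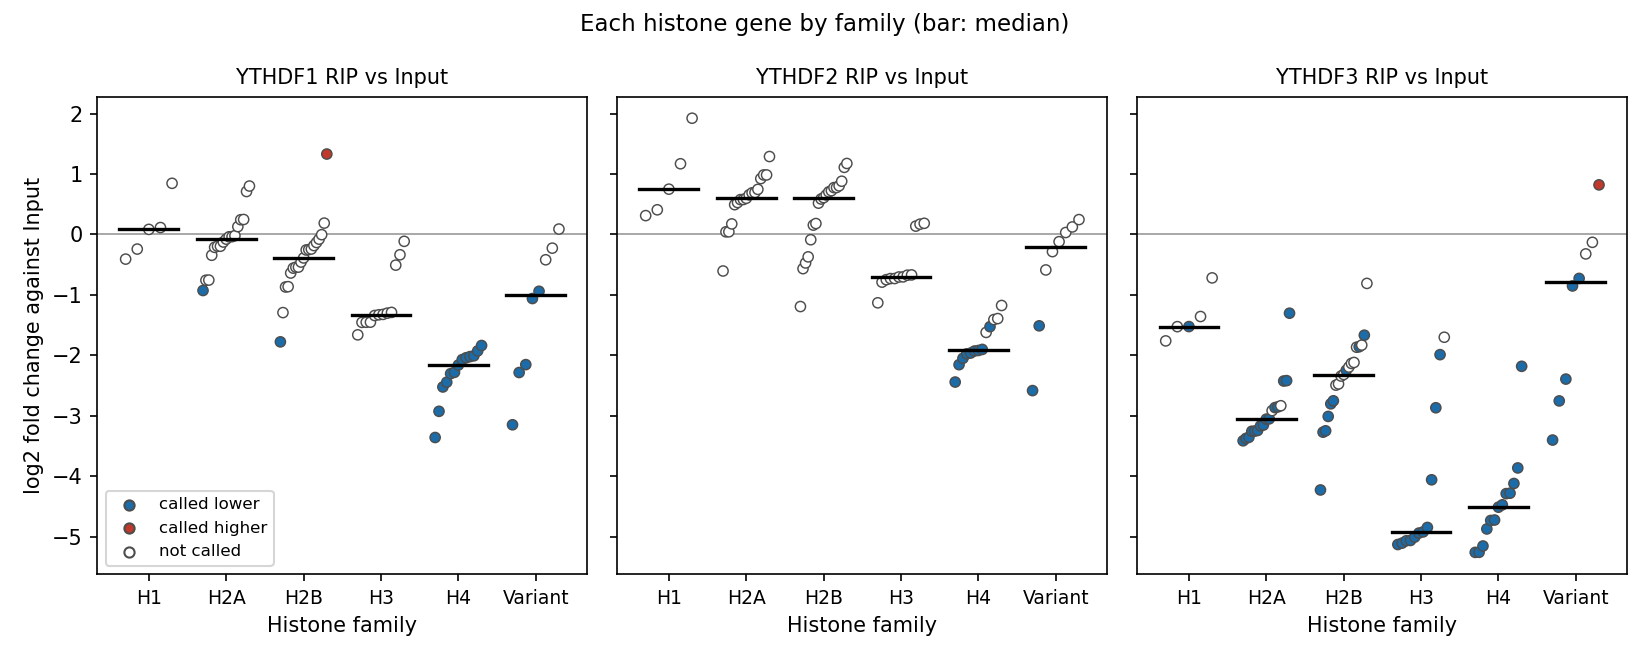
Log2 fold change of each histone gene against Input for the 3 RIPs, with replication-dependent genes split by family and the 8 variant genes at the right. Filled blue points were called lower, red points higher and open points not called, and bars are medians; the 13 H4 genes lie below 0 in all 3 panels, with medians of -2.16, -1.92 and -4.51.

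The families differed in where they fell. H4 is the histone that pairs with H3 in the core tetramer, and its mRNAs were the lowest family in the YTHDF1 and YTHDF2 RIPs. All 13 H4 genes were called lower with YTHDF1 and with YTHDF3, and 9 with YTHDF2, where DESeq2 called 12. The H4 genes together took 151, 203 and 400.5 CPM in Input, 52.0, 90.7 and 15.01 CPM in the YTHDF1 RIP, 57.0, 83.0 and 74.9 CPM in the YTHDF2 RIP and 12.5, 11.1 and 12.8 CPM in the YTHDF3 RIP. Each RIP library was below each Input library, and the YTHDF3 RIP was below all others. The 9 replication-dependent genes called lower in all 3 RIPs were all H4 genes (*H4c1*, *H4c2*, *H4c3*, *H4c4*, *H4c8*, *H4c11*, *H4c12*, *H4c14* and *H4f16*).

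*H4c3* (chr13:23697635-23698454, minus strand, 1 exon) was the lowest or next to lowest replication-dependent gene in every RIP. It measured 17.7, 19.9 and 28.7 CPM in Input, 3.80, 4.35 and 0.83 CPM with YTHDF1, 2.53, 4.48 and 5.14 CPM with YTHDF2, and 0.70, 0.48 and 0.53 CPM with YTHDF3. No RIP library reached the lowest Input. With YTHDF1 it changed by -2.93 ± 0.51 on the log2 scale (SE, adjusted p = 0.00059 in edgeR), followed by -2.44 ± 0.50 with YTHDF2 (adjusted p = 0.0034) and -5.26 ± 0.57 with YTHDF3 (adjusted p = 5.9e-05). All 3 calls held in each of the 23 other settings run.

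*H4c8* gave a like picture, with 13.2, 20.1 and 37.4 CPM in Input against 3.92, 7.42 and 1.12 CPM with YTHDF1. It had 3.86, 5.23 and 6.70 CPM with YTHDF2 and 0.54, 0.41 and 0.99 CPM with YTHDF3. Its log2 fold changes were -2.52 ± 0.60, -2.15 ± 0.60 and -5.15 ± 0.68 (adjusted p = 0.0043, 0.016 and 0.00017). *H4c6* had the same log2 fold change as *H4c3* with YTHDF3, -5.26 ± 0.76, and was also called with YTHDF1 (-2.07 ± 0.64, adjusted p = 0.017) but not with YTHDF2 (-1.62 ± 0.64, adjusted p = 0.069). The YTHDF2 call of *H4c8* was lost without Input replicate 3 or YTHDF2 RIP replicate 1 or 2, and the YTHDF1 call of *H4c6* without Input replicate 3 or YTHDF1 RIP replicate 1. Both were also lost with the length trend removed, and that of *H4c6* with 2 groups alone and the replicate block.

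*H4f16*, a lone H4 gene on chromosome 6 (chr6:136801553-136804415) that shares no 50-base window with another histone gene, gives an H4 value free of its copies. It measured 4.57, 8.27 and 12.6 CPM in Input and no more than 1.78 CPM with YTHDF1, 3.14 CPM with YTHDF2 and 0.73 CPM with YTHDF3. Its log2 fold changes were -3.36 ± 0.68, -1.98 ± 0.65 and -3.86 ± 0.68 (adjusted p = 0.0017, 0.034 and 0.00098), of which the YTHDF2 call was lost without Input replicate 2 or 3 or YTHDF2 RIP replicate 1 or 3.

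H3 genes were lower with YTHDF3 to a similar degree as H4, without calls in the other RIPs when all libraries were used. Of 12 H3 genes, 11 were called lower with YTHDF3 (median -4.93), and 0 with YTHDF1 (median -1.33) or YTHDF2 (median -0.70). At an unadjusted p under 0.05 edgeR gave 1 gene lower with YTHDF1 and 0 with YTHDF2, and DESeq2 called the same numbers. Summed H3 was 97.7, 242 and 593 CPM in Input and 13.9, 29.2 and 26.3 CPM in the YTHDF3 RIP. In the YTHDF1 RIP it was 101, 291 and 42.2 CPM and in the YTHDF2 RIP 162, 304 and 185 CPM, inside the range of Input apart from the lowest YTHDF1 library. Without YTHDF1 RIP replicate 2, 9 of the 12 were called lower with YTHDF1 and the median was -2.97.

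H2A and H2B, which form the dimers of the nucleosome, had most of their calls with YTHDF3 when all libraries were used. With YTHDF3, 15 of 17 H2A genes (median -3.06) and 9 of 19 H2B genes (median -2.32) were called lower. With YTHDF1, 1 H2A and 1 H2B gene were lower and 1 H2B gene higher, and with YTHDF2 none of either family was called, with 0 also at an unadjusted p under 0.05 and by DESeq2. The medians with YTHDF2 were 0.60 and 0.61. Without YTHDF1 RIP replicate 2, 9 H2A and 15 H2B genes were lower with YTHDF1. *H2ac19* shows the pattern at 75.2, 89.6 and 199.5 CPM in Input, 50.7, 140 and 24.3 CPM with YTHDF1, 101, 177 and 96.8 CPM with YTHDF2 and 19.2, 29.6 and 19.0 CPM with YTHDF3. Its log2 fold change was -2.43 ± 0.59 with YTHDF3 (adjusted p = 0.0067) and 0.04 ± 0.56 with YTHDF2 (adjusted p = 0.96), where the libraries overlap those of Input. The call was lost with the length trend removed (-0.33).

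*H2ac15* had among the highest fold changes with YTHDF2 (1.29 ± 0.93, adjusted p = 0.31), yet it was called lower with YTHDF3 (-2.86 ± 1.00, adjusted p = 0.039). Its levels were 5.94, 13.7 and 34.5 CPM in Input, 29.8, 70.6 and 31.3 CPM with YTHDF2 and 0.82, 2.44 and 4.07 CPM with YTHDF3. The YTHDF1 RIP held 9.34, 78.3 and 6.06 CPM, with replicate 2 above all other libraries of this gene. *H2ac12*, *H2ac23* and *H2ac24* followed the same order, with log2 fold changes of -3.17 ± 1.1, -3.06 ± 1.07 and -3.05 ± 1.07 with YTHDF3 and of 0.69, 0.98 and 0.98 with YTHDF2, where none was called. The YTHDF3 calls of these 4 genes held in 13 or 14 of the 23 other settings. With library size alone all 4 were lost. They were lost without any 1 of the YTHDF3 RIP replicates, Input replicate 2, Input replicate 3 or YTHDF2 RIP replicate 1 and with the length trend removed, where *H2ac15* was at -0.57, and all but that of *H2ac12* also without YTHDF2 RIP replicate 3.

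*H2bc21* (chr3:96221119-96223738) was the single gene of the replication-dependent class called higher in any RIP, and it is in that class by its symbol alone. Whether its mRNA lacks a poly(A) tail was not tested. *H2bc21* encodes an H2B, has an annotated transcript of 2620 bases with no stem-loop match and shares no window with other histone genes. It measured 2.05, 2.05 and 2.25 CPM in Input and 4.03, 9.20 and 2.79 CPM with YTHDF1, so all YTHDF1 libraries were above Input. It had 1.595, 1.34 and 1.34 CPM with YTHDF2 and 1.32, 1.33 and 0.96 CPM with YTHDF3, and all of these were below Input. The log2 fold changes were 1.33 ± 0.40 (adjusted p = 0.016), -0.57 ± 0.43 (adjusted p = 0.34) and -0.81 ± 0.41 (adjusted p = 0.14). Without YTHDF1 RIP replicate 2 the log2 fold change was 0.60 and the gene was no longer called. The call was also lost with library size alone and with 2 groups alone, with or without the replicate block.

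H1 genes encode the linker histones, and their median log2 fold changes were 0.08 with YTHDF1, 0.75 with YTHDF2 and -1.52 with YTHDF3. Of the 5, 0 were called with YTHDF1 or YTHDF2 and 1 was lower with YTHDF3. At an unadjusted p under 0.05 these counts were 0 and 1 (higher), and DESeq2 gave 0 and 1. *H1f4* had the highest mean CPM of all replication-dependent genes, with 25.6, 47.1 and 90.1 CPM in Input, 39.9, 229 and 23.1 CPM with YTHDF1, 161, 315 and 141 CPM with YTHDF2 and 19.2, 32.3 and 47.2 CPM with YTHDF3. The YTHDF2 libraries lay above all Input libraries, but the log2 fold change of 1.92 ± 0.77 was not called (adjusted p = 0.074). With YTHDF1 it was 0.85 ± 0.75 and with YTHDF3 -0.72 ± 0.75. *H1f2* was the H1 gene called lower with YTHDF3 (-1.52 ± 0.48, edgeR adjusted p = 0.026). The call was lost without Input replicate 2 or 3 or YTHDF3 RIP replicate 1 or 3, with library size alone and with the length trend removed. *H1f3* was not called with YTHDF3 (-1.53 ± 0.86, edgeR adjusted p = 0.19).

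**Figure D3:**
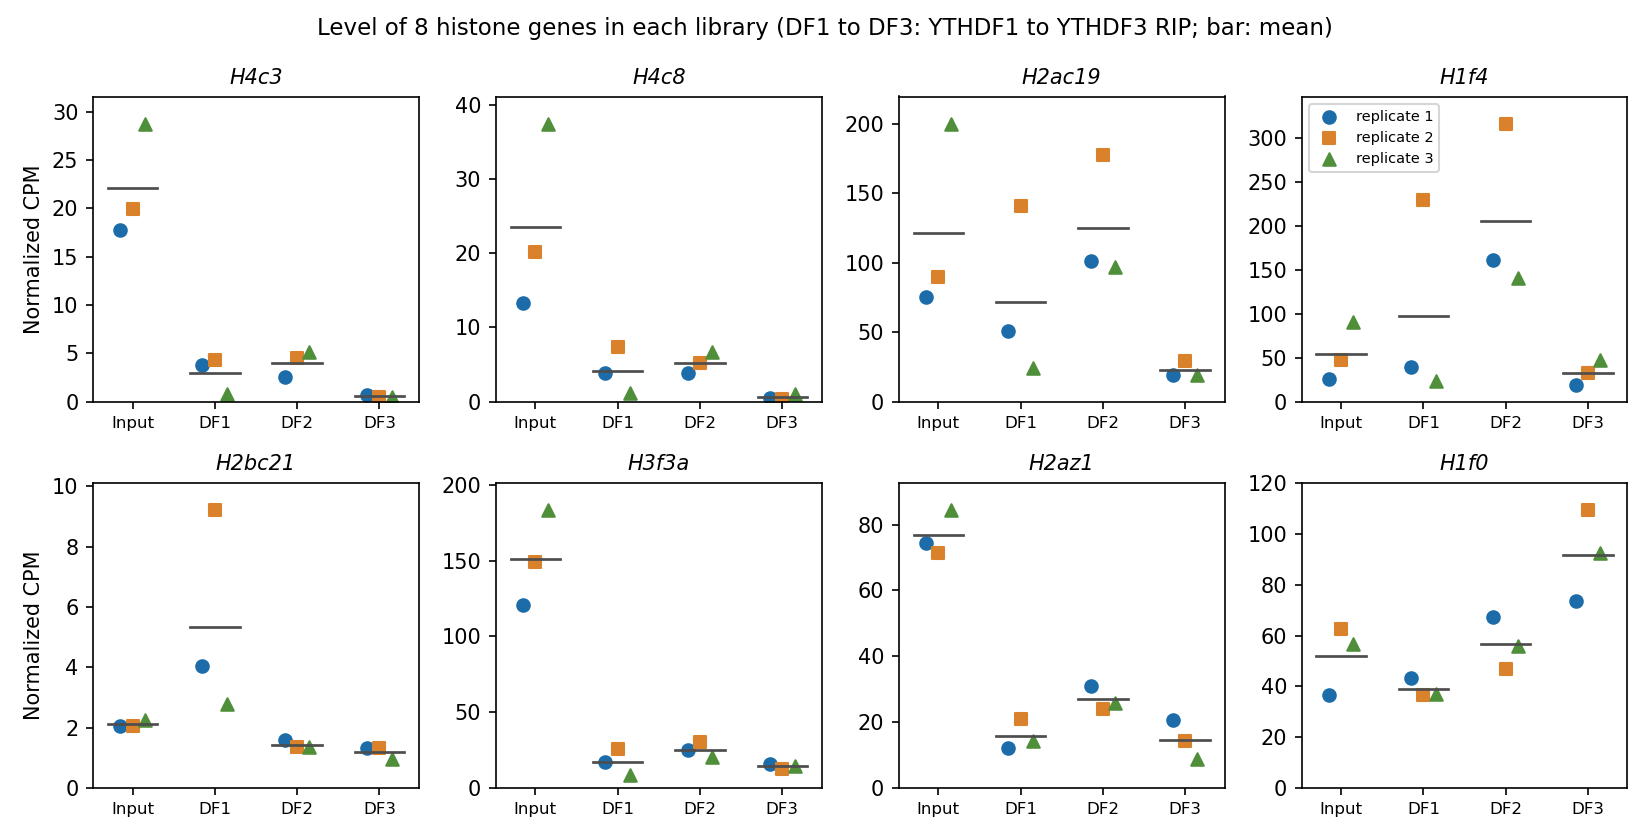
Normalized CPM of 8 histone genes in each library, with DF1 to DF3 for the YTHDF1 to YTHDF3 RIPs, points for libraries coloured by replicate number and bars for group means. H4c3, H4c8, H3f3a and H2az1 are below Input in all RIP libraries, H1f4 is highest in the YTHDF2 RIP and YTHDF1 replicate 2, and H1f0 is highest in the YTHDF3 RIP.

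Among the variants, an H3.3 gene and an H2A.Z gene, *H3f3a* and *H2az1*, were called lower in all 3 RIPs. Of 8 variant genes, 5 were lower with YTHDF1 (25.8% of all genes), 2 with YTHDF2 (19.0%) and 5 with YTHDF3 (23.0%), and 1 was higher with YTHDF3 (16.4%). None was higher with YTHDF1 or YTHDF2, also with DESeq2 or at an unadjusted p under 0.05. Their median log2 fold changes were -1.0, -0.20 and -0.79. *H3f3a* (chr1:180800832-180813943), 1 of 2 genes for the replacement histone H3.3, had 121, 149 and 183 CPM in Input. It had 17.3, 25.4 and 8.56 CPM with YTHDF1, 25.3, 30.01 and 20.3 CPM with YTHDF2, and 16.1, 12.5 and 14.3 CPM with YTHDF3. Its log2 fold changes were -3.15 ± 0.35, -2.58 ± 0.34 and -3.40 ± 0.35 (adjusted p = 3.7e-05, 0.00042 and 5.1e-05). Input and RIP libraries were far apart and the RIPs close to each other.

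*H3f3b*, the other H3.3 gene, was nearer to Input although it encodes the same protein. It measured 124, 135 and 159 CPM in Input, 65.4, 82.7 and 52.5 CPM with YTHDF1, 124, 138 and 81.7 CPM with YTHDF2, and 80.6, 77.7 and 73.3 CPM with YTHDF3. It was called lower with YTHDF1 (-1.06 ± 0.23, adjusted p = 0.0022) and YTHDF3 (-0.85 ± 0.22, adjusted p = 0.0100), and was -0.28 ± 0.22 with YTHDF2 (adjusted p = 0.35). The YTHDF3 call held in 19 of the 23 other settings. It was lost with the length trend removed (with or without the replicate block), with library size alone and with no filter. A direct test between the 2 genes was not made.

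The H2A.Z genes likewise fell unequally. *H2az1* fell in all RIPs, from 74.4, 71.5 and 84.3 CPM in Input to 12.2, 20.8 and 14.1 CPM with YTHDF1, 30.9, 23.9 and 25.9 CPM with YTHDF2, and 20.8, 14.3 and 8.73 CPM with YTHDF3. The log2 fold changes were -2.28 ± 0.30, -1.51 ± 0.30 and -2.39 ± 0.30 (adjusted p = 0.00010, 0.0027 and 0.00013). *H2az2* stood at 3.20, 13.1 and 16.0 CPM in Input, 1.27, 4.07 and 1.81 CPM with YTHDF1, 8.24, 13.1 and 8.27 CPM with YTHDF2, and 0.89, 1.52 and 2.31 CPM with YTHDF3. It was lower with YTHDF1 (-2.15 ± 0.59, adjusted p = 0.0098) and YTHDF3 (-2.75 ± 0.60, adjusted p = 0.0036), with -0.12 ± 0.56 with YTHDF2, although YTHDF1 RIP replicate 2 was above Input replicate 1. The calls of *H3f3a* and *H2az1* in all 3 RIPs held in each of the 23 other settings.

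Of the macroH2A genes, whose proteins carry a large extra domain, *Macroh2a2* was called lower with YTHDF1 (-0.94 ± 0.27, adjusted p = 0.012) and YTHDF3 (-0.73 ± 0.27, adjusted p = 0.049). The YTHDF3 call held in 10 of the 23 other settings and was lost without Input replicate 2 or 3 or any 1 of the YTHDF2 or YTHDF3 RIP libraries, and the YTHDF1 call held in 19 and was lost without YTHDF1 RIP replicate 3. *Macroh2a1* was not called in any comparison with Input (-0.23 ± 0.18, 0.25 ± 0.18 and -0.32 ± 0.18). *H2ax*, the variant phosphorylated at DNA breaks and the single variant mRNA here with a stem-loop, was at 21.2, 24.6 and 41.2 CPM in Input and between 22.7 and 37.0 CPM in the RIPs. Its log2 fold changes were 0.09, 0.03 and -0.13, each ± 0.27, and its libraries overlapped in every comparison.

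*H1f0*, the linker histone of non-dividing cells, went the other way. It had 36.8, 62.7 and 56.7 CPM in Input, 43.3, 36.5 and 37.0 CPM with YTHDF1, 67.3, 47.0 and 55.8 CPM with YTHDF2, and 73.7, 109 and 92.6 CPM with YTHDF3, where every library was above Input. It was called higher with YTHDF3 (0.82 ± 0.23, adjusted p = 0.014), and was -0.42 ± 0.23 with YTHDF1 and 0.12 ± 0.23 with YTHDF2. Without Input replicate 1 or without YTHDF3 RIP replicate 2 it was no longer called (0.62 and 0.71).

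Since the lysate of each replicate was shared between RIPs, the replication-dependent sum was also set against the Input of the same number. The YTHDF3 RIP held 0.251, 0.228 and 0.113 of the same-numbered Input in replicates 1, 2 and 3. The ratios were 0.806, 1.95 and 0.0953 for YTHDF1 and 2.004, 2.28 and 0.494 for YTHDF2, on both sides of 1. For the H4 genes they were 0.343, 0.446 and 0.0375 with YTHDF1, 0.377, 0.409 and 0.187 with YTHDF2 and 0.0827, 0.0545 and 0.0320 with YTHDF3. Deviations from the group means went together between same-numbered libraries of Input and the YTHDF3 RIP (r = 0.825, 0.522 and 0.807 across genes), but not between Input and the YTHDF1 RIP (0.064, -0.262 and -0.335) or the YTHDF2 RIP (0.188, -0.328 and -0.324). Replicate 2 of the YTHDF1 and YTHDF2 RIPs went with Input replicate 3 instead (r = 0.465 and 0.578), so the ratios and the block below rest, for these RIPs, on numbers that the values do not bear out as pairs. With the replicate number as a block and the 2 groups fitted alone, all 66 replication-dependent genes were lower with YTHDF3, with edgeR adjusted p of at most 0.016. The same fit gave 5 lower with YTHDF1 in place of 15 and 12 with YTHDF2 in place of 9. The share of all tested genes called lower was not computed for this fit, so its counts have no background beside them.

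Histone transcripts are short (medians of 539 and 2050.5 bases against 3303 in the authors' table), so the values were also computed with a correction for length. With the length trend of each library removed, 26 of the 66 genes stayed lower with YTHDF3 (13 H4, 9 H3, 2 H2A, 2 H2B and 0 H1) and the median moved from -3.05 to -1.16. With YTHDF1 5 genes stayed lower, all H4, and with YTHDF2 3, all H4, while 7 were then called higher with YTHDF2.

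Single libraries moved the counts too. The count lower with YTHDF1 was 46 without YTHDF1 RIP replicate 2 and 9 without Input replicate 3. With YTHDF2 it was 14 without YTHDF1 RIP replicate 2, 5 and 2 without Input replicates 2 and 3, and 1, 3 and 4 without YTHDF2 RIP replicates 1, 2 and 3. With YTHDF3 it was 30 without Input replicate 3, and 31 without either YTHDF3 RIP replicate 1 or replicate 2. H4 genes lower with YTHDF3 numbered 12 or 13 in all 23 settings, the 12 in a setting that tested 12 of them. With YTHDF1 they numbered 5 to 13 and with YTHDF2 1 to 13.

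**Figure D4:**
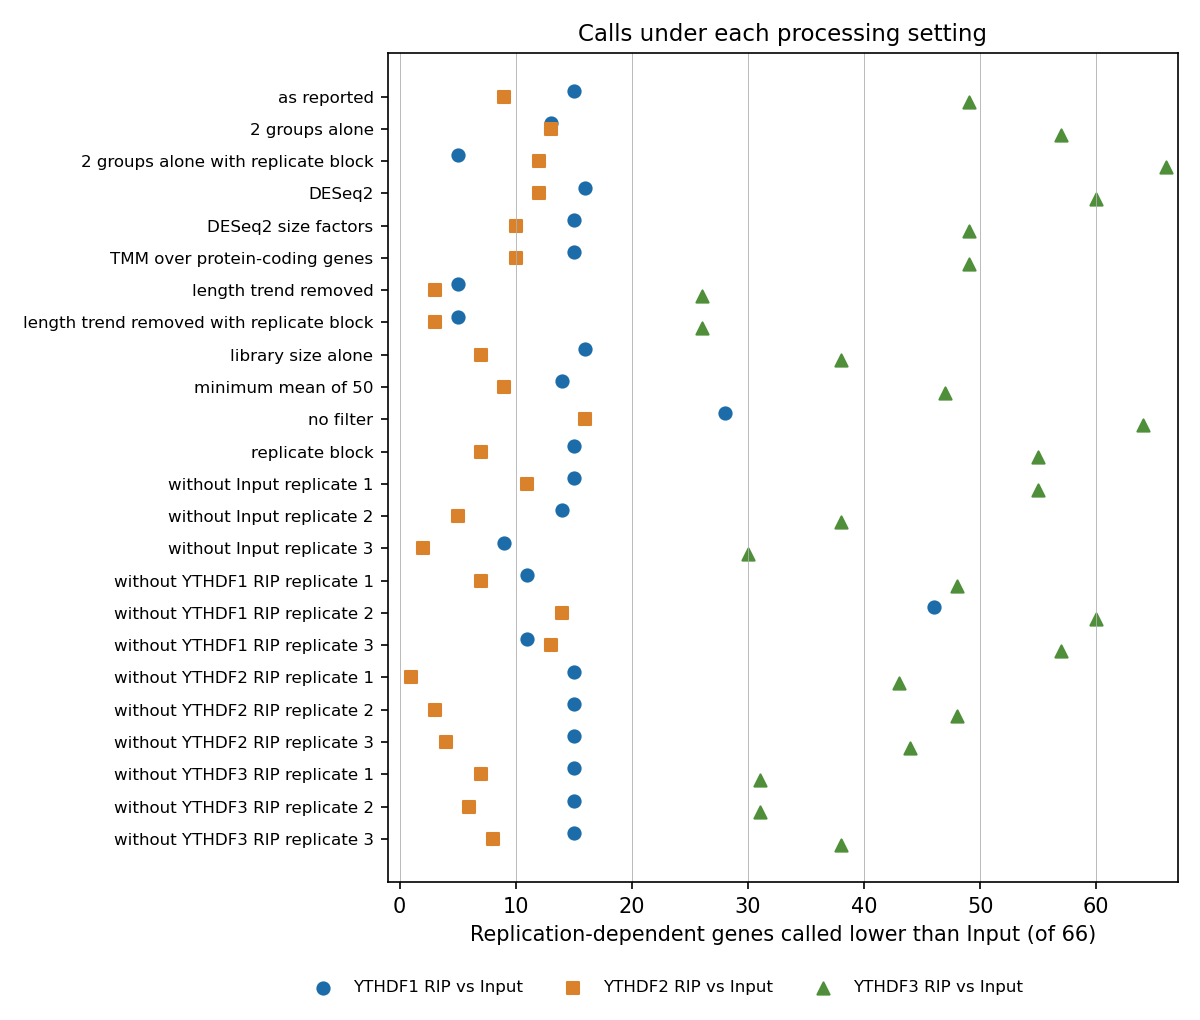
Number of the 66 replication-dependent genes called lower than Input (x axis) under the reported setting and 23 others (y axis), with 1 symbol per RIP. The YTHDF3 RIP lies between 26 and 66 in all settings, and the YTHDF1 RIP jumps from 15 to 46 without its replicate 2.

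The RIPs were then compared with each other, in the model that also holds the Input libraries, with a call at the same adjusted p and a change of 2-fold or more. YTHDF1 against YTHDF2 gave 1 replication-dependent gene higher (11.4% of all genes) and 0 lower (6.10%), with a median log2 difference of -0.70, 0 lower by DESeq2 and 0 at an unadjusted p under 0.05. The gene was *H2bc21*, at 1.90 ± 0.43 (adjusted p = 0.0066). Without YTHDF1 RIP replicate 2, 45 of the 66 were called, 44 of them lower, and with the replicate block and these 2 groups alone 26 were called, 25 of them lower.

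Replication-dependent genes were called higher in both of the other RIPs than in the YTHDF3 RIP. For YTHDF1 the sum of the 66 overlapped, as its replicate 3 (291 CPM) lay below YTHDF3 RIP replicates 2 and 3 (318 and 347 CPM). In 27 of the 66 genes, among them 10 H3 and 10 H4 genes, every YTHDF1 library was above every YTHDF3 library. YTHDF1 against YTHDF3 gave 33 genes higher (10.8% of all genes) and 0 lower (3.63%), with a median of 2.40. YTHDF2 against YTHDF3 gave 36 higher (3.95%) and 0 lower (1.16%), with a median of 3.02. In 65 of the 66 genes every YTHDF2 library was above every YTHDF3 library. For neither count of separated genes was the share over all tested genes computed, and near copies share reads. No gene was lower in these comparisons by DESeq2 or at an unadjusted p under 0.05, and DESeq2 called 44 and 61 higher. *H4c3* differed by 2.33 ± 0.54 (adjusted p = 0.010) and 2.82 ± 0.55 (adjusted p = 0.014), and *H2ac15* by 3.67 ± 1.02 (adjusted p = 0.025) and 4.15 ± 1.04 (adjusted p = 0.035). The *H4c3* calls were lost without YTHDF1 RIP replicate 2 against YTHDF1 and without YTHDF3 RIP replicate 2 or 3 against YTHDF2. Those of *H2ac15* were lost without YTHDF1 RIP replicate 2 or YTHDF3 RIP replicate 1 or 2 against YTHDF1, and without Input replicate 2 or any 1 of the YTHDF2 or YTHDF3 RIP libraries against YTHDF2. Against YTHDF1, the calls of both genes were also lost with the YTHDF1 and YTHDF3 RIPs fitted alone, with or without the replicate block.

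These counts rest on few libraries. Against YTHDF1 the count was 1 without YTHDF1 RIP replicate 2 (where the median fell to 0.92), 9, 5 and 20 without YTHDF3 RIP replicates 1, 2 and 3, and it was 2 with these 2 groups alone and 0 with the replicate block added. Against YTHDF2 it was 21 without Input replicate 2, 59 and 56 without YTHDF1 RIP replicates 2 and 3, 14, 1 and 11 without YTHDF2 RIP replicates 1, 2 and 3, and 2, 0 and 2 without YTHDF3 RIP replicates 1, 2 and 3. The median stayed between 2.24 and 3.46 in all 23 settings against YTHDF2.

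Few variants were called between the RIPs. Against YTHDF2, *H2az2* was lower with YTHDF1 (-2.03 ± 0.60, adjusted p = 0.026), and it was higher with YTHDF2 than with YTHDF3 (2.63 ± 0.60, adjusted p = 0.025). The first call was lost without YTHDF1 RIP replicate 1 or 3 or YTHDF2 RIP replicate 2, and the other without any 1 of the YTHDF2 or YTHDF3 RIP libraries. *H1f0* was lower with YTHDF1 than with YTHDF3 (-1.24 ± 0.23, edgeR adjusted p = 0.0032), a call lost with these 2 groups alone and the replicate block. No other variant gene was called between RIPs, and for *H3f3a* the differences were -0.57 ± 0.33, 0.25 ± 0.33 and 0.82 ± 0.33, small beside its distance from Input.

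Replication-dependent genes were also split by where the annotated transcript ends. The median log2 fold change with YTHDF3 was -3.25 in 22 genes that end within 75 bases of the stem-loop, -3.01 in 21 that run further and -2.87 in 23 without a match. With YTHDF2 the medians were 0.35, -0.37 and 0.31, and with YTHDF1 -0.50, -0.87 and -0.24. Histone families were not evenly spread over these sets, and a difference by transcript end apart from family was not tested.

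Genes that process histone mRNA were called in both directions. Of 24 such genes, 9 were higher and 3 lower with YTHDF1 (27.2% and 25.8% of all genes), 9 and 3 with YTHDF2 (15.7% and 19.0%), and 5 and 5 with YTHDF3 (16.4% and 23.0%), with medians of 0.33, 0.37 and 0.26. *Slbp* itself was at 17.7 ± 2.6 CPM in Input (SD, n = 3) and 13.5 ± 5.4, 15.5 ± 3.1 and 21.9 ± 1.8 CPM in the RIPs, and was not called. *Npat*, a coactivator of histone gene transcription, was higher in all 3 RIPs at log2 fold changes of 1.67 ± 0.21, 0.61 ± 0.21 and 1.46 ± 0.21 (adjusted p = 7.4e-05, 0.039 and 0.00026). *Casp8ap2*, which encodes the processing factor FLASH, was higher as well at 1.87 ± 0.18, 0.78 ± 0.17 and 1.31 ± 0.17 (adjusted p = 1.3e-05, 0.0057 and 0.00017). *Zfp473*, whose product binds the U7 particle, was higher with YTHDF1 (1.93 ± 0.57, adjusted p = 0.013), from a level of 0.43 ± 0.32 CPM in Input.

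The U7 subunit genes differed. *Lsm10* was lower with YTHDF2 (-0.89 ± 0.30, adjusted p = 0.039) and YTHDF3 (-1.47 ± 0.29, adjusted p = 0.0021), and was -0.59 ± 0.29 with YTHDF1 (adjusted p = 0.11). *Lsm11* was not called in any RIP (-0.36 ± 0.31, -0.72 ± 0.31 and 0.11 ± 0.31). Histone chaperone and exchange genes, which deposit histones into chromatin, were also called in both directions. Of 29, 14 were higher and 2 lower with YTHDF1, 8 and 3 with YTHDF2 and 11 and 4 with YTHDF3, beside the same shares of all genes, with medians of 0.69, 0.40 and 0.12.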

How the data were processed

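The authors counted reads per gene with featureCounts 2.0.1 after UMI-based removal of duplicates (UMI-tools 1.1.1, cutadapt 3.4, STAR 2.7.7a, mm10) and deposited raw counts of 55573 genes for the 12 libraries. Per the file headers, reads with several alignments or overlapping several genes were counted for each, so near-identical histone copies share counts. From the authors' tables, biotype and symbol were read, and the deposited mean signal (counts over size factors) served to describe their content; their columns of fold changes and p-values were not used.

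The 17126 genes whose scaled counts averaged 10 or more were tested with edgeR 4.0.16 in R 4.3.3: TMM factors, 1 quasi-likelihood model with 4 groups and Benjamini-Hochberg adjustment over all genes. SE is the log2 fold change over the square root of F. Total counts of 6020072 to 38909592 set the precision. The methods call the replicates biological, with 1 lysate per replicate split between RIPs and Input; same-numbered libraries deviated together for Input and the YTHDF3 RIP (r of 0.522 to 0.825) but not for the other pairs with Input (-0.335 to 0.188).

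The genes and lists were chosen with earlier results of these data known. Named were all variant genes, the 8 replication-dependent genes with the highest mean CPM, the 2 highest and 2 lowest fold changes in each RIP and 6 processing genes; other genes in sentences on sequences or calls in all 3 RIPs were named after their values were seen. Alternatives were DESeq2 1.42.0, its size factors, library size, TMM over protein-coding genes, no filter, a minimum mean of 50, a replicate block, a loess length correction (span 0.3), 2 groups alone and leaving out each library.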

Additional observations from a re-analysis of the deposited data

Results flagged for a closer look

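Some genes lay on opposite sides of Input in 2 RIPs while the RIPs differed from each other in the direct edgeR test. *H1f0* differed by -1.24 between the YTHDF1 and YTHDF3 RIPs (adjusted p = 0.0032), and *H1f2* by 1.93 between the YTHDF2 and YTHDF3 RIPs (adjusted p = 0.037). *H2bc21* differed by 1.90 between the YTHDF1 and YTHDF2 RIPs (adjusted p = 0.0066) and by 2.14 between the YTHDF1 and YTHDF3 RIPs (adjusted p = 0.0034). Between YTHDF1 and YTHDF3, the calls of *H1f0* and *H2bc21* were lost with those 2 groups alone and the replicate block. *H2ac15* differed by 3.67 between YTHDF1 and YTHDF3 and by 4.15 between YTHDF2 and YTHDF3 (adjusted p = 0.025 and 0.035). Its YTHDF1 value against Input ran from -1.30 to 1.91 over the other settings. The first call was lost without YTHDF1 RIP replicate 2 (1.49), without YTHDF3 RIP replicate 1 or 2 and with the YTHDF1 and YTHDF3 RIPs fitted alone. The other was lost without Input replicate 2 or any 1 of the YTHDF2 or YTHDF3 RIP libraries. *H2ac23* and *H2ac24*, whose counts are nearly equal, differed by 4.04 and 4.04 between YTHDF2 and YTHDF3 (adjusted p = 0.048 for each). These calls and that of *H1f2* were likewise lost without Input replicate 2 or any 1 of the YTHDF2 or YTHDF3 RIP libraries. Those of *H2ac23* and *H2ac24* were also lost with the length trend removed and no replicate block.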

How the results depend on the processing

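Over 23 alternatives, all planned, the 66 replication-dependent genes stayed below Input with YTHDF3 by median, and the calls with YTHDF1, YTHDF2 and between RIPs moved most; the causes were not tested. Library size alone shifted the median of all genes by -0.40 with YTHDF1 and 0.33 with YTHDF3, and TMM over protein-coding genes by -0.24 with YTHDF1. Shares of all tested genes called were computed for the reported setting only.

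With YTHDF1 the replication-dependent genes lower numbered 5 with 2 groups alone and the replicate block, 5 with the length trend removed, 5 with that and the replicate block, and 28 with no filter. Those higher numbered 0 with 2 groups alone, 0 with the block added, 0 with library size alone, 0 at a minimum mean of 50, 2 with the length trend removed and the replicate block, and 3 with no filter. The variant median was -1.24 with TMM over protein-coding genes and -1.42 with library size alone. With YTHDF2 the genes lower numbered 3 with the length trend removed, 3 with the block added and 16 with no filter, and those higher 1 with 2 groups alone, 1 with the block added, 1 with DESeq2, 7 and 20 with the length trend removed without and with the block, and 7 with no filter. With YTHDF3 the genes lower numbered 26 with the length trend removed, with or without the replicate block (medians -1.15 and -1.16), and the variant median was -0.46 with library size alone. *H2ax* turned from -0.13 to 0.82 with YTHDF3 (adjusted p = 0.039) with the length trend removed and to 0.84 (adjusted p = 0.041) with the block added.

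Between YTHDF1 and YTHDF2, 26 replication-dependent genes were called with 2 groups alone and the replicate block, 0 at a minimum mean of 50 and 7 with no filter, and 5 variants with library size alone. Between YTHDF1 and YTHDF3 there were 2 with 2 groups alone, 0 with the block added (0 variants), 16 with library size alone and 61 with no filter. Between YTHDF2 and YTHDF3 there were 61 with 2 groups alone, 61 with DESeq2 and 63 with no filter, and 2 variants with the length trend removed, where the median was 2.24 (2.29 with the block). The replicate block in the fit of all 12 libraries gave 15, 7 and 55 genes lower with YTHDF1, YTHDF2 and YTHDF3.

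Leaving out 1 library at a time gave 9 to 46, 1 to 14 and 30 to 60 replication-dependent genes lower with YTHDF1, YTHDF2 and YTHDF3, and 0 to 1, 0 to 1 and 0 to 0 higher. Their medians ran from -2.32 to 0.10, -0.21 to 0.86 and -3.51 to -1.999. Variants called numbered 4 to 6, 2 to 3 and 4 to 6, with medians of -1.34 to -0.85, -0.46 to -0.018 and -0.89 to -0.59. Between RIPs (YTHDF1 and YTHDF2, YTHDF1 and YTHDF3, YTHDF2 and YTHDF3) the replication-dependent calls numbered 1 to 45, 1 to 46 and 0 to 59, with medians of -2.40 to -0.20, 0.92 to 2.87 and 2.72 to 3.46, and the variant calls 0 to 4, 1 to 1 and 0 to 1.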
